A study of Mus musculus with 47 samples.

Results

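Of 47 leukaemic mouse spleens measured on arrays, 10 had high Itgb3, and these were set against the other 37. Itgb3 encodes integrin beta3. The 10 spleens were chosen by the array itself: of the probe sets that name only Itgb3, the one with the highest mean was taken, and a spleen was called Itgb3-high when its value was above 7. Values are log2 expression on the RMA scale, a microarray summary on which 1 unit is a doubling of signal. Itgb3 was left out of every test, and its own difference is a description.

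Integrin beta3 pairs with the alpha chain Itga2b on megakaryocytes and platelets to form the fibrinogen receptor through which platelets clump. It also pairs with the alpha chain Itgav, on osteoclasts, endothelium and other cells, as a receptor for vitronectin and related matrix proteins. In the mouse, the spleen is a site of megakaryocyte production as well as a store of platelets.

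Each array held RNA of the spleen of a separate mouse, frozen at necropsy. All mice carried the same kind of system: Tg(ACTB-cre)2Mrt, a Cre recombinase under the ACTB promoter, the conditional transposase allele Gt(ROSA)26Sortm2(sb11)Njen, and a Sleeping Beauty transposon concatemer, TgTn(sb-T2/Onc2)6070Njen in 26 mice or TgTn(sb-T2/Onc2)6113Njen in 21. The ACTB promoter switches Cre on in all tissues, so transposons could move in any cell and each leukaemia carried its own insertions. Every mouse had the diagnosis undifferentiated myeloid leukaemia, sampled at the terminal stage, and there were no spleens of healthy mice. The labels gave an Erg insertion in 26 tumours and none in 21, and ages from 32 to 97 with no unit. Whole spleen contains leukaemic cells and the cells of the host, so a lower level cannot be split into fewer cells of a type and less RNA per cell; the 2 cannot be told apart.

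For 4 labels the spleens with high Itgb3 and the others did not differ past the threshold. The Erg insertion label was on 5 of the 10 and on 21 of the 37 (Fisher's exact test, two-sided, p = 0.734). Transposon line 6113 accounted for 6 of the 10 and 15 of the 37 (p = 0.306), and 6 of the 10 were labelled female against 19 of the 37 (p = 0.730). Mean age was 65.6 ± 11.4 (SD, n = 10) against 65.0 ± 16.3 (SD, n = 37), with p = 0.912 in a permutation test. Adjusted over these 4 label comparisons, each p was 0.912. A number in the tumour identifiers, of no stated meaning, was 7 in 0 of the 10 and in 11 of the 37 (Fisher's exact test, two-sided, p = 0.0885, added after seeing the data). The sex labels disagreed with Xist in 24 of 47 arrays, so the labels may not belong to the arrays that carry them, and sample names are used here as names only. Xist, a long RNA made only where an X chromosome is being shut down, was above 7 in 3 of the 10 and in 22 of the 37 (p = 0.154). The difference between 3′ and 5′ probe sets of the array controls, a measure of RNA quality, was 1.41 ± 0.64 (SD, n = 10) against 1.36 ± 0.39 (SD, n = 37; permutation p = 0.699). It was highest, at 2.96, in the Itgb3-high array named Male 10.

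Itgb3 had no wide gap at the threshold. In the 10 spleens it ran from 7.09 through a median of 7.64 to 9.69, and in the other 37 from 5.31 through 6.07 to 6.95. The lowest 2 arrays inside were both at 7.09, and the nearest outside were at 6.95 and 6.83. The highest values were those of Female 21 at 9.69, Female 18 at 8.86, Male 16 at 8.28 and Male 10 at 8.16. A second Itgb3 probe set lay near the floor of the scale, with 5.21 to 5.88 in the 10 spleens and 5.09 to 5.40 in the others. RMA values have such a floor: the 25th percentile of all values was 5.08, so differences of dim genes are compressed.

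The label was checked against the platelet genes Gp1bb, Pf4 and Ppbp. Gp1bb encodes the beta chain of glycoprotein Ib, part of the platelet receptor for von Willebrand factor. It ran from 6.31 through 7.46 to 9.47 in the Itgb3-high spleens and from 5.02 through 5.62 to 6.79 in the others. Of the 10 spleens, 9 lay above all 37 others. The difference was 1.90 ± 0.20 log2 units (SE), or 3.74-fold, with an adjusted p of 1.75e-08 in limma, a linear model fitted to 18177 genes with Benjamini-Hochberg adjustment.

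Ppbp, the precursor of platelet basic protein, a chemokine stored in platelet granules, ran from 6.90 through 10.0 to 10.8 against 5.07 through 6.90 to 9.81. It was higher by 2.49 ± 0.46 (SE; adjusted p = 0.000902), and 9 of the 10 spleens were above the median of the others. Female 18 was the exception, at 6.90. Pf4, platelet factor 4, another granule chemokine, ran from 8.99 through 9.60 to 11.2 against 6.25 through 8.73 to 10.7. The groups overlapped widely, although all 10 spleens were above the median of the others. Its difference was 1.18 ± 0.39 (SE), with an adjusted p of 0.0483 that became 0.0595 when every probe set of the array was tested in place of 1 for each gene. The call also rested on single arrays: leaving out any of the 10 except Female 15 gave an adjusted p of 0.0532 to 0.0883.

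**Figure D1:**
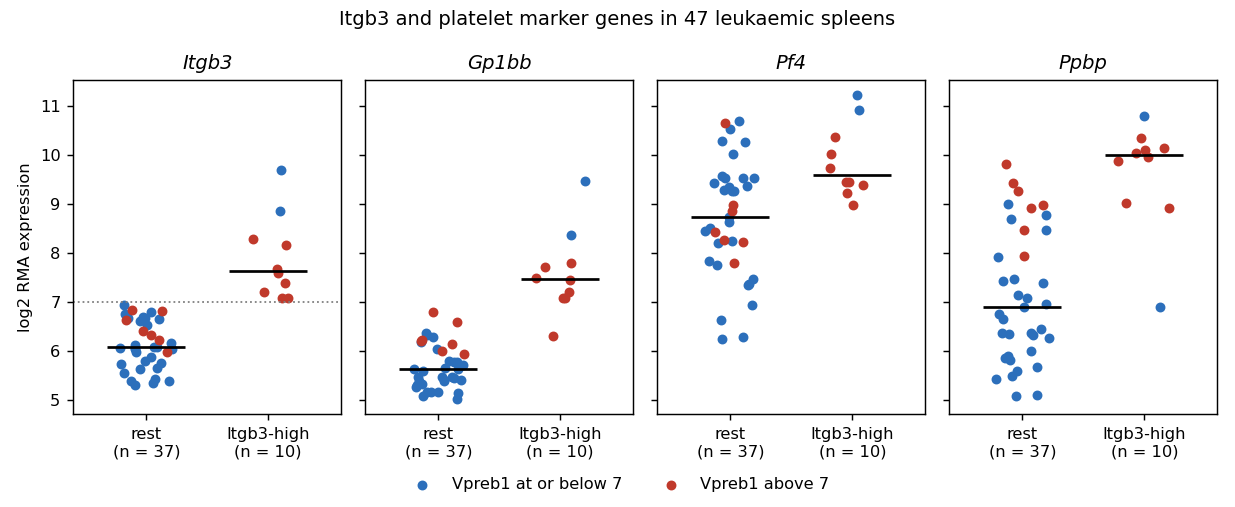
Log2 RMA expression (vertical axis) of Itgb3, Gp1bb, Pf4 and Ppbp in the 37 other spleens and the 10 Itgb3-high spleens; each point is 1 array, black bars are medians, the dotted line is the threshold of 7 on Itgb3, and red points are arrays with Vpreb1 above 7. Of the 10 Itgb3-high spleens, 9 had more Gp1bb than all others, while Pf4 and Ppbp overlapped.

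The promoters of 4 genes of this platelet group are shown, since their genes are read together on the arrays and the letters give the context of their starts. They are Gp1bb and Gp9 (chains of the von Willebrand factor receptor), Pf4, and Itga2b, the alpha chain that pairs with Itgb3. Each sequence is from RefSeq on GRCm38.p6 and runs 5′ to 3′ on the gene's strand, from 250 bases before the transcription start to 50 bases after it. The Gp1bb window is chr16:18622354-18622653 on the minus strand and that of Gp9 is chr6:87777820-87778119 on the plus strand. The Pf4 window is chr5:90772185-90772484 on the plus strand and that of Itga2b is chr11:102469834-102470133 on the minus strand. Capitals mark GATAA, a core of sites that GATA factors bind, and GGAAG, a core of sites that ETS factors bind, on either strand (TTATC and CTTCC on the opposite one).
Gp1bb: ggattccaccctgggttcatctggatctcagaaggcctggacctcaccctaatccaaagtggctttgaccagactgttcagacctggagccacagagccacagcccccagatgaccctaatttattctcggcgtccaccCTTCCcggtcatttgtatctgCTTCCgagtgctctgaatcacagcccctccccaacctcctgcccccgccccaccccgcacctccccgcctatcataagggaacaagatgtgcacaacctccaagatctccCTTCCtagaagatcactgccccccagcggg
Gp9: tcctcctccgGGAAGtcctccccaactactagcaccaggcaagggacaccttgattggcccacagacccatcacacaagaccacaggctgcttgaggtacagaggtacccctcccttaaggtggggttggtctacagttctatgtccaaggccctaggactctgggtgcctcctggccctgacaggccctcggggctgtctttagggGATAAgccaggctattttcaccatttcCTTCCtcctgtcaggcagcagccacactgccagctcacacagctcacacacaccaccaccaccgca
Pf4: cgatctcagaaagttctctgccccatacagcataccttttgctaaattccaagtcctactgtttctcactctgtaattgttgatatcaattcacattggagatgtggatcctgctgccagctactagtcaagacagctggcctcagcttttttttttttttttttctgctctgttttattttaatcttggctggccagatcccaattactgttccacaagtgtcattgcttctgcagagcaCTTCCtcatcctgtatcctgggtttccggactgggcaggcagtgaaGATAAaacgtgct
Itga2b: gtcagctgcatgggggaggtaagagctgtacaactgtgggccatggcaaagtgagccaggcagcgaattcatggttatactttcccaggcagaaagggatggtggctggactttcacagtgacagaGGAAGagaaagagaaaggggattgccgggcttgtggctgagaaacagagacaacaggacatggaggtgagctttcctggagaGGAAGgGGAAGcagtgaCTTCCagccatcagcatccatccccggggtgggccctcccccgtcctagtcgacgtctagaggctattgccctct

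The GGAAG letters stood in all 4 windows, 3 times in Gp1bb, 2 in Gp9, 1 in Pf4 and 4 in Itga2b. They are common: 71.4% of 32851 windows of this length held at least 1. The GATAA letters stood once in Gp9 and once in Pf4, and 25.4% of all windows held them. Only GATAA and GGAAG were searched for, so unmarked stretches were not checked for other forms of these sites. A match is a description of the letters, and binding was not measured here.

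The threshold on Itgb3 selected many spleens that also had high Vpreb1. Vpreb1 and Igll1 encode the surrogate light chain, which B cell precursors carry before they have an antibody light chain. Vpreb1 was above 7 in 8 of the 10 Itgb3-high spleens and in 7 of the 37 others (Fisher's exact test, two-sided, p = 0.000648). Igll1 was above 7 in 8 of 10 against 6 of 37. A second Igll1 probe set, near the floor, differed by 0.004 between the sides. The 2 spleens with high Itgb3 and low Vpreb1 were Female 21 and Female 18, the pair with the highest Itgb3 of all. For that reason a second fit held as a further term whether Vpreb1 was above 7. This Vpreb1 term was added after seeing the data.

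**Figure D2:**
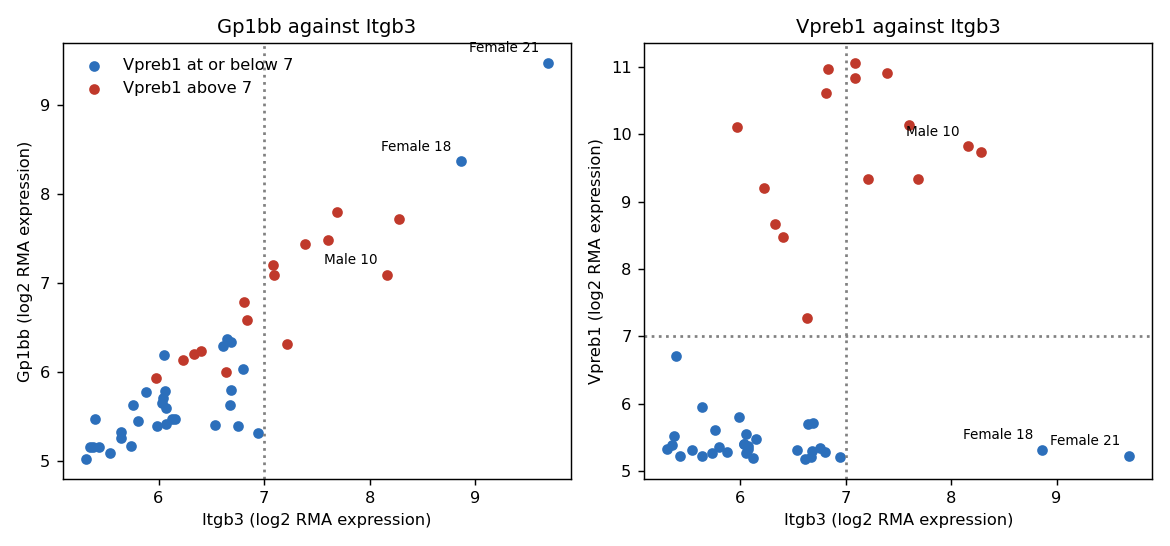
Gp1bb (left) and Vpreb1 (right) against Itgb3 in the 47 arrays, all in log2 RMA units; points are arrays, red where Vpreb1 was above 7, and dotted lines mark 7. Gp1bb climbs with Itgb3 in arrays of both colours, while the 2 arrays with the highest Itgb3, Female 21 and Female 18, have low Vpreb1.

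Across genes, 880 of 18177 were higher in the Itgb3-high spleens (4.84%) and 711 were lower (3.91%) at an adjusted p under 0.05 in limma, 8.75% in either direction. The split by direction depends on centring: when the median of each array was set equal, 888 were higher (4.89%) and 2385 lower (13.1%), so the share of calls that were higher went from 55.3% to 27.1%. The median difference over all genes moved from -0.01 to -0.03. Once the Vpreb1 term was added, 94 genes were higher (0.517%) and 13 lower (0.0715%), of which 59 and 8 were among those of the fit without it. No gene apart from Itgb3 had all 10 spleens above, or all 10 below, the other 37 (0 of 18177 in each direction).

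Leaving out 1 Itgb3-high array moved these counts most for Female 9, without which 563 genes were higher and 428 lower, and for Male 3, without which 649 were higher and 410 lower. Of 76 genes past the threshold that the rule for named genes took, 49 kept the call whichever of the 10 arrays was left out and 27 lost it at least once. Gp1bb, Gp9, Ppbp, Vwf, Alox12, Clec1b, F5 and Mmrn1 were among those that kept it. The rule took genes with small p or large differences in these same arrays, so the 76 do not stand for all calls. Without Female 9, 60 of the 76 kept the call, but 553 of the 880 higher and 422 of the 711 lower genes did. With the tumour identifier number as a block, 518 genes were higher and 273 lower, 40 of the 107 platelet and megakaryocyte genes described next were higher, and 25 of the 76 lost the call. Among those 25 were Pf4 (adjusted p = 0.0792), Itgav (0.0834), Meis1 (0.0913), Stat5a (0.0923) and 10 of the 12 lower genes named last, including Mt2 (0.0923).

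A large share of the platelet and megakaryocyte genes was higher. Of 107 tested genes on 4 lists of such genes, 43 were higher and 0 lower, against 4.84% and 3.91% of all genes, and the median difference over the lists was 0.20 against -0.01 over all genes. With the Vpreb1 term, 19 of the 107 were higher and 0 lower, against 0.517% and 0.0715% of all genes. The mean level over the lists ran from 6.54 through 6.65 to 7.19 in the Itgb3-high spleens and from 6.06 through 6.42 to 6.61 in the others, so the ranges overlapped only at their ends.

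Among platelet receptors and membrane proteins, 11 of 25 were higher, 6 with the Vpreb1 term, against 4.84% and 0.517% of all genes. Gp9, the glycoprotein IX chain that sits beside Gp1bb in the von Willebrand factor receptor, ran from 6.23 through 6.94 to 8.31 against 5.49 through 5.79 to 6.42. It was higher by 1.05 ± 0.13 (SE; adjusted p = 5.89e-07), and 7 of the 10 spleens lay above all others. The fit with the Vpreb1 term gave 0.95 ± 0.15 (SE; adjusted p = 0.000576), so Gp9 was higher in both. Gp5, which encodes another chain of that receptor, differed by only 0.07 ± 0.29 (SE; adjusted p = 0.904).

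Clec1b, the platelet receptor for podoplanin, was above all others in 8 of the 10 spleens and higher by 1.09 ± 0.18 (SE; adjusted p = 0.000174). The Vpreb1 term took it to 0.68, with an adjusted p of 0.0541. Those 8 spleens, at 7.19 to 7.79, were the ones with Vpreb1 above 7. Female 21 and Female 18, with the highest Itgb3, had Clec1b at 6.20 and 6.32. That is within the 5.45 to 7.02 of the 30 others with low Vpreb1. Cd9, a membrane protein abundant on platelets, was higher by 0.99 ± 0.22 (SE), and by 1.23 ± 0.25 with the term. Ptgir, the receptor for prostacyclin, which restrains platelets, was higher by 0.33 ± 0.06, and the adhesion molecule Esam by 0.26 ± 0.08, a call lost without Female 9 or Female 21 (adjusted p = 0.0562 and 0.0891). Both passed with the Vpreb1 term as well, at 0.35 and 0.40. P2ry12, an ADP receptor, Tbxa2r, the thromboxane receptor, Treml1, Cd151 and the serotonin transporter Slc6a4 passed only without the Vpreb1 term, with differences of 0.20 to 0.45.

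Itga2b, the partner of Itgb3 in the fibrinogen receptor, did not pass. It ran from 6.81 through 8.11 to 10.1 against 6.16 through 7.69 to 8.89, a difference of 0.67 ± 0.29 (SE; adjusted p = 0.133). Only 6 of the 10 spleens were above the median of the others. With the Vpreb1 term the difference was 1.30 ± 0.30 (SE; adjusted p = 0.0253). Within the 15 arrays with Vpreb1 above 7, Itga2b ran from 6.81 through 7.72 to 9.33 in the 8 Itgb3-high spleens and from 6.33 through 6.48 to 8.76 in the 7 others. In arrays with low Vpreb1 the 2 Itgb3-high spleens had 9.03 and 10.1, above the highest of the 30 others at 8.89.

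Itgav, the other alpha chain that pairs with Itgb3, ran from 6.23 through 7.05 to 7.29 against 5.77 through 6.29 to 7.32. It was higher by 0.50 ± 0.14 (SE; adjusted p = 0.0223), and by 0.16 with the Vpreb1 term (adjusted p = 0.706). The call was lost without Male 3 or Female 9 (adjusted p = 0.0532 and 0.0515). Of 5 Itgav probe sets the brightest was used. The others lay near the floor, differed by -0.03 to 0.02, and did not pass. Of 23 tested integrin genes besides Itgb3, Itgav and Itgb5 were higher and 0 lower, a share of 8.7% against 8.75% of all genes called. Itgb5, another beta chain that pairs with Itgav, was higher by 0.19 ± 0.05 (SE), with overlapping groups. The leucocyte integrin chains Itgam and Itgb2 differed by 0.07 and 0.18 and did not pass.

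Genes for proteins that platelets store in granules followed, with 12 of 24 higher and 3 with the Vpreb1 term. The shares of all genes were 4.84% and 0.517%. Vwf, von Willebrand factor, ran from 6.12 through 6.78 to 9.08 against 5.27 through 5.83 to 7.30, and all 10 spleens were above the median of the others. It was higher by 1.08 ± 0.21 (SE; adjusted p = 0.00125), and by 1.21 ± 0.24 with the Vpreb1 term (adjusted p = 0.0112). Endothelium also makes Vwf, and of 20 tested endothelial genes only Vwf and Esam were higher and Nos3, which makes nitric oxide in endothelium, was lower, by 0.09, a call lost without any 1 of 8 arrays (adjusted p up to 0.11). Cdh5, Kdr and Pecam1, chosen after their values were seen, differed by -0.00, 0.02 and 0.16 and did not pass. Of the 20 endothelial differences 13 were positive, and 16 with the Vpreb1 term, against 6951 and 8011 of all 18177 genes. Calls made up 15.0% of the list, against 8.75% of all genes. Which cells the Vwf RNA came from was not tested. The mean level of the endothelial list ran from 5.62 to 5.96 in the Itgb3-high spleens and from 5.45 to 5.83 in the others.

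F5, coagulation factor V, was higher by 0.77 ± 0.12 (SE), and Mmrn1, multimerin, which binds factor V in granules, by 0.86 ± 0.15. Both passed with the Vpreb1 term, at 0.63 (adjusted p = 0.0202) and 0.66 (adjusted p = 0.0479). Female 21 had F5 at 7.38 and Mmrn1 at 7.17, but Female 18 had 5.12 and 5.24. The 30 other spleens with low Vpreb1 had medians of 5.15 and 5.35, above Female 18 for each gene. A second probe set of F5 was higher by 0.44, and that of Mmrn1, near the floor, differed by 0.01. Selp, the adhesion protein P-selectin, was higher by 0.89, F13a1, a chain of coagulation factor XIII, by 0.82, Clu by 0.89 and Timp3, an inhibitor of matrix proteases, by 0.61. The term gave 0.83, 0.66, 0.38 and 0.47 and did not pass. Ppbp gave 1.27 ± 0.44 (SE; adjusted p = 0.189) and Pf4 1.35 ± 0.47 (SE; adjusted p = 0.191).

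Ppbp followed Vpreb1 as well as Itgb3. Among the 37 other spleens it ran from 7.94 through 8.99 to 9.81 in the 7 with Vpreb1 above 7 and from 5.07 through 6.42 to 8.99 in the 30 without. Gp1bb in the same spleens ran from 5.93 through 6.20 to 6.79 and from 5.02 through 5.47 to 6.37. These are levels in arrays sorted by a measured gene, given as a description.

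Genes of the megakaryocyte cytoskeleton and of platelet signalling had the largest share of the platelet lists. Of 33 tested, 18 were higher, and 10 with the Vpreb1 term, against 4.84% and 0.517% of all genes. Alox12, the platelet 12-lipoxygenase, ran from 5.85 through 6.66 to 7.75 against 5.19 through 5.45 to 6.15, and 7 of the 10 spleens lay above all others. It was higher by 1.13 ± 0.13 (SE; adjusted p = 8.19e-08), and by 0.92 ± 0.14 with the term (adjusted p = 0.000286). Plek, pleckstrin, a main target of protein kinase C in platelets, was higher by 0.81, and by 1.18 with the term. Zyx, a protein of actin attachment sites, was higher by 0.45 ± 0.08, Myh9, the heavy chain of non-muscle myosin, by 0.52, and Gucy1b1, a chain of the nitric oxide receptor, by 0.31. These 3 also passed with the Vpreb1 term.

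Tubb1, the beta tubulin of platelets, Tpm4, a tropomyosin, and Rasgrp2, which switches on the integrins of platelets through Rap1, were higher by 0.82, 1.16 and 1.06. With the term their differences were 0.49, 0.39 and 0.46 and they did not pass. By contrast Vcl (vinculin), Tln1 (talin) and Rab27b, a trafficking protein of granules, passed only with the term, at 0.79, 0.38 and 0.82, against 0.32, 0.23 and 0.37 without it.

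Few transcription regulators of megakaryocytes passed, at a share near that of all genes. Of 25 tested, Mrtfa and Meis1 were higher and 0 lower, 8.0% against 8.75% of all genes; with the Vpreb1 term 0 passed in either direction, against 0.589% of all genes. Mrtfa, a coactivator that responds to actin, was higher by 0.34 ± 0.07 (SE; adjusted p = 0.0027) and Meis1, a homeobox factor, by 0.25 ± 0.08 (SE; adjusted p = 0.0411), which was lost without any 1 of Female 1, Female 9, Male 10, Female 21 or Male 16 (adjusted p up to 0.163). When arrays were centred on their medians, 4 of the 25 passed, 16.0% against 18.0% of all genes. The direction of this list depended on the Vpreb1 term: 11 of the 25 differences were positive without it (median -0.04) and 18 with it (median 0.17). Within the arrays with Vpreb1 above 7, 21 of the 25 were positive (median 0.10), and 0 passed. Of all 18177 genes, 6951, 8011 and 8432 were positive in these fits, in that order. The mean level over this list ran from 6.496 through 6.85 to 7.15 in the Itgb3-high spleens and from 6.39 through 6.97 to 7.14 in the others.

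Gata1, the factor that drives both the erythroid and the megakaryocyte line, ran from 5.98 through 7.14 to 8.27 against 5.65 through 7.80 to 8.29, with a difference of -0.35 ± 0.30 (SE; adjusted p = 0.484). With the Vpreb1 term it was 0.32 ± 0.30 (SE; adjusted p = 0.715), and 0.21 and 0.54 within the arrays with high and low Vpreb1, so its sign turned. Nfe2, which late megakaryocytes need to release platelets, differed by -0.21 ± 0.37 (SE; adjusted p = 0.759), and by 0.62 ± 0.37 with the term (adjusted p = 0.518). Fli1, an ETS factor of megakaryocytes, ran from 5.91 through 7.46 to 8.53 against 5.45 through 6.48 to 8.21, a difference of 0.76 ± 0.27 (SE; adjusted p = 0.0652). Mef2c, a factor of several blood lines, differed by 0.80 ± 0.27 (SE; adjusted p = 0.0523), the nearest to the threshold of those that missed it. Both values were smaller with the Vpreb1 term, at 0.35 and 0.34.

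Erg, the ETS factor in which the study recorded transposon insertions, had a difference of 0.04 ± 0.35 (SE; adjusted p = 0.961), and of 0.53 ± 0.40 with the Vpreb1 term (adjusted p = 0.631). It ran from 5.43 through 6.63 to 8.21 against 5.08 through 6.59 to 8.28, and 5 of the 10 spleens were above the median of the others. Runx1 differed by 0.15, Etv6 by 0.01, Tal1 by -0.17 and Gfi1b by -0.32, and none of these 4 passed. With the term they were 0.23, 0.28, 0.31 and -0.01, and none passed. Gata2, a factor of early progenitors and mast cells, differed by -0.64 ± 0.35 (SE; adjusted p = 0.251), by 0.01 with the term, and was above 7 in 1 of the 10 spleens and 15 of the 37.

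Erythroid genes, which share Gata1 with the megakaryocyte line, gave no call: 0 of 21 passed, and 0 of 14 genes of haem synthesis, where 8.75% of all genes did, so lists this short could hold few calls at that share. Car1, a carbonic anhydrase of red cell precursors, came nearest. It ran from 6.20 through 8.84 to 11.2 against 6.49 through 11.0 to 11.6, a difference of -1.40 ± 0.52 (SE; adjusted p = 0.0767), and 9 of the 10 spleens were below the median of the others. Klf1, the factor that directs globin expression, differed by -0.78 ± 0.35 (SE; adjusted p = 0.148). With the Vpreb1 term they were -0.40 (adjusted p = 0.823) and -0.34 (adjusted p = 0.787). With arrays centred, 2 erythroid genes (9.52%) and 1 of haem synthesis (7.14%) were lower, against 13.1% of all genes.

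The 12 largest positive differences among genes past the threshold included genes of several blood lines. They were Vpreb1 at 3.00 ± 0.62 (SE), S100a8 at 2.50 ± 0.60, Ppbp, Flt3 at 2.43 ± 0.49, Igll1 at 2.35 ± 0.54, S100a9 at 2.34 ± 0.57, Enpep, Pde2a, Gp1bb, Chil3, Mzb1 and Plac8, down to 1.75 for Plac8. Vpreb1 has no test with the Vpreb1 term, which is made from it. Of the other 11, Gp1bb passed with the term and 10 did not, among them Igll1. Vpreb1 itself lay at 9.34 to 11.1 in 8 of the 10 spleens and at 5.22 and 5.31 in the others, so the group held spleens at both ends of its range. Flt3, the receptor for a growth factor of early lymphoid and dendritic progenitors, was above 7 in 6 of the 10 spleens and 3 of the 37.

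B cell genes followed Vpreb1. Of 24 tested, 10 were higher and 0 lower, 41.7% against 8.75% of all genes. With the Vpreb1 term 0 were called, against 0.589% of all genes, and the median difference went from 0.48 to -0.12. The list holds Vpreb1, from which the term is made. The factor Ebf1, which commits cells to the B line, was higher by 1.20, the adaptor Blnk by 1.55, the receptor chain Cd79b by 1.25 and the interleukin 7 receptor Il7r by 1.13; with the term these were 0.08, 0.09, -0.21 and -0.13. Pax5 and Ms4a1, which mark committed B cells, differed by 0.08 and 0.16 and did not pass. The mean level of the list ran from 5.54 through 7.22 to 7.86 in the Itgb3-high spleens and from 5.63 through 5.88 to 7.81 in the others. Its part in the platelet results was looked at only through Vpreb1, by the term and by splitting the arrays on it.

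Neutrophil genes were also higher, with 10 of 20 called, 50.0% against 8.75% of all genes. With the Vpreb1 term 0 were called, against 0.589% of all genes. S100a8, a calcium-binding protein abundant in neutrophils, ran from 8.09 through 9.99 to 12.0 against 5.05 through 7.70 to 11.7, and all 10 spleens were above the median of the others. Lcn2, a late granule protein, was higher by 1.26 ± 0.26 (SE; adjusted p = 0.00222), Ngp by 1.66 and Mpo, myeloperoxidase of the early granules, by 0.90. Unlike the B cell genes they kept most of their size with the term, at 1.69 for S100a8, 1.08 for Lcn2, 1.18 for Ngp and 0.74 for Mpo, and the median difference of the list went from 0.57 to 0.53. Csf3r, the receptor for the growth factor of neutrophils, differed by -0.89 and did not pass.

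Of 23 monocyte and macrophage genes 9 were higher, 39.1% against 8.75% of all genes. Among them were Csf1r, the receptor for the macrophage growth factor, by 0.95, and Vcam1 by 0.58 ± 0.16 (SE). Spic, a factor of the macrophages that clear red cells, was higher by 0.43 ± 0.10, and the complement gene C1qb by 0.50 ± 0.14. With the Vpreb1 term 0 of the 23 passed, against 0.589% of all genes, and Csf1r stood at 0.20. Osteoclasts carry Itgb3 too. Of 13 osteoclast genes, Tcirg1 and Itgav were higher and 0 lower, 15.4% against 8.75% of all genes. Of the 13 differences 10 were positive, against 6951 of all 18177 genes. Tcirg1 lost the call without Female 9, Male 10 or Male 16, among others (adjusted p up to 0.122). With the Vpreb1 term 0 of the 13 passed, against 0.589% of all genes. Calcr, Oscar and Ctsk, chosen after their values were seen, differed by 0.02, -0.01 and 0.06. A part of osteoclasts in the Itgb3 signal was not tested.

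T and NK cell genes gave 1 call of 25, Ncr1 at 0.06 ± 0.02 (SE) near the floor, lost without Female 1, Male 3 or Female 13 (adjusted p up to 0.118). Cd3d, a chain of the T cell receptor complex, was above 7 in 0 of the 10 spleens and 9 of the 37, but its difference of -0.85 did not pass. Of 18 genes of mast cells, basophils and eosinophils 2 were higher, Mitf by 0.15 and Csf2rb, a receptor chain for interleukin 3 and its relatives, by 0.82. Prg2, major basic protein of eosinophils, was above 7 in 2 of the 10 spleens and 1 of the 37, and stood at 11.8 in Male 10. Of 25 stem and progenitor genes 5 were higher (Flt3, Cd34, Meis1, Esam and Spi1) and 0 lower, 20.0% against 8.75% of all genes. Cd34 lost the call without any 1 of Female 9, Female 13, Male 10, Female 21 or Male 16 (adjusted p up to 0.161). A term for Xist left 1 of the 25 called, against 8.2% of all genes. Of 11 plasma cell genes Mzb1 and Xbp1 were higher (18.2%), Xbp1 not without Male 10 or Female 15 (adjusted p = 0.0791 and 0.103). Of 20 dendritic cell and MHC class II genes Flt3 alone was higher. With the Vpreb1 term, Esam was the 1 stem and progenitor gene that passed, and 0 passed on the plasma cell and dendritic cell lists. The mast cell, basophil and eosinophil list (11.1% called), the T and NK cell list (4.0%) and the dendritic cell list (5.0%) were near the 8.75% of all genes.

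**Figure D3:**
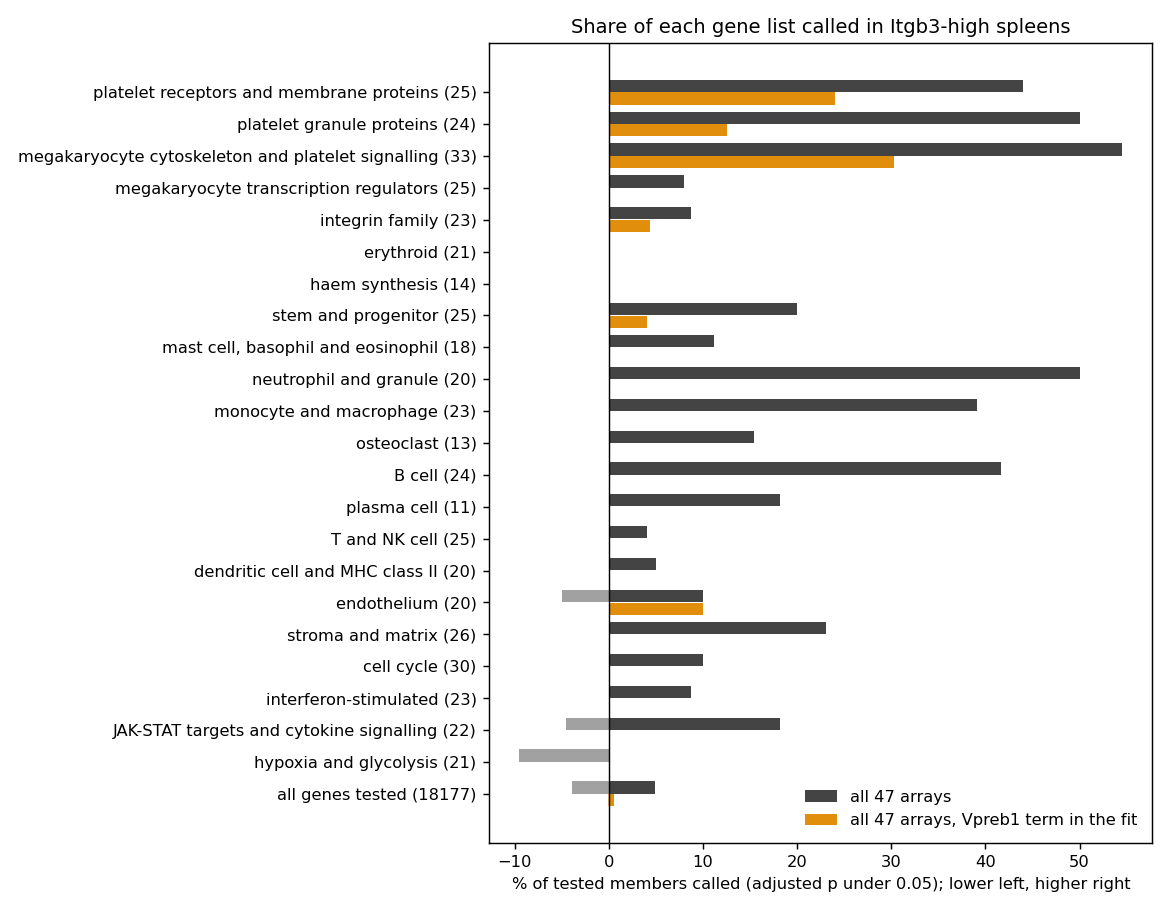
Percentage of the tested members of each gene list (number tested in brackets) that were higher (bars to the right) or lower (paler bars to the left) in Itgb3-high spleens at an adjusted p under 0.05, without (dark) and with (orange) the Vpreb1 term. Platelet receptor, granule and cytoskeleton lists keep calls with the term, with 6, 3 and 10 members, while the neutrophil, macrophage and B cell lists keep 0. With the term 0.589% of all genes were called, so lists this short could hold few calls at that share.

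Cell cycle genes were called at a share near that of all genes and JAK-STAT genes at a larger one, 10.0% and 22.7% against 8.75%. Of 30 cell cycle genes, Ccnd2 (0.85 ± 0.27, SE), Ccnd3 (0.34 ± 0.10) and the inhibitor Cdkn2d (0.33 ± 0.10) were higher and 0 lower, while Mki67 and Top2a, markers of dividing cells, differed by -0.02 and -0.09. Each of these 3 calls was lost without Male 3, Female 13 or Female 21, among others, with an adjusted p up to 0.113. Of 22 JAK-STAT genes, Socs2, a feedback inhibitor, was higher by 1.28 ± 0.27 (SE; adjusted p = 0.00262), with Bcl2l1, Csf2rb and Sh2b3, and Stat5a was lower. Stat5a ran from 5.85 through 6.05 to 6.54 against 5.73 through 6.63 to 7.14, and all 10 spleens were below the median of the others. It fell by 0.43 ± 0.12 (SE; adjusted p = 0.022), and the call was lost without Male 3 (adjusted p = 0.0515). The difference of Stat5a with the Vpreb1 term was -0.02, and 0 of the 30 and 0 of the 22 passed.

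Among genes past the threshold, Mt2 had the largest negative difference. Mt2, a metallothionein that binds zinc and copper, ran from 6.49 through 8.37 to 9.44 against 6.84 through 9.64 to 10.9, with all 10 spleens below the median of the others. It fell by 1.24 ± 0.36 (SE; adjusted p = 0.0245). The next were Spint2, Adcy7, Garem1, Hnrnpll, Oat, Cenpv, Ap3s1, Lonrf1, Nefh, Mthfd1 and Pitrm1, which fell by 0.71 to 0.54 log2 units. Hnrnpll, an RNA-binding protein that regulates splicing, ran from 6.22 through 7.05 to 7.74 against 6.596 through 7.90 to 8.25. Adcy7, Hnrnpll, Lonrf1 and Nefh kept the call whichever array was left out, and the other 8 lost it, Mt2 without Female 1, Male 3, Female 15 or Male 16 (adjusted p up to 0.0696). None of these 12 passed with the Vpreb1 term, where Mt2 stood at -0.67 and Spint2 at 0.05. Among 21 genes of hypoxia and glycolysis 0 were higher and 2 lower, a share of 9.52%, near the 8.75% of all genes. Tpi1, an enzyme of glycolysis, fell by 0.39 and Ankrd37 by 0.15, and neither passed with the term or without Male 3.

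**Figure D4:**
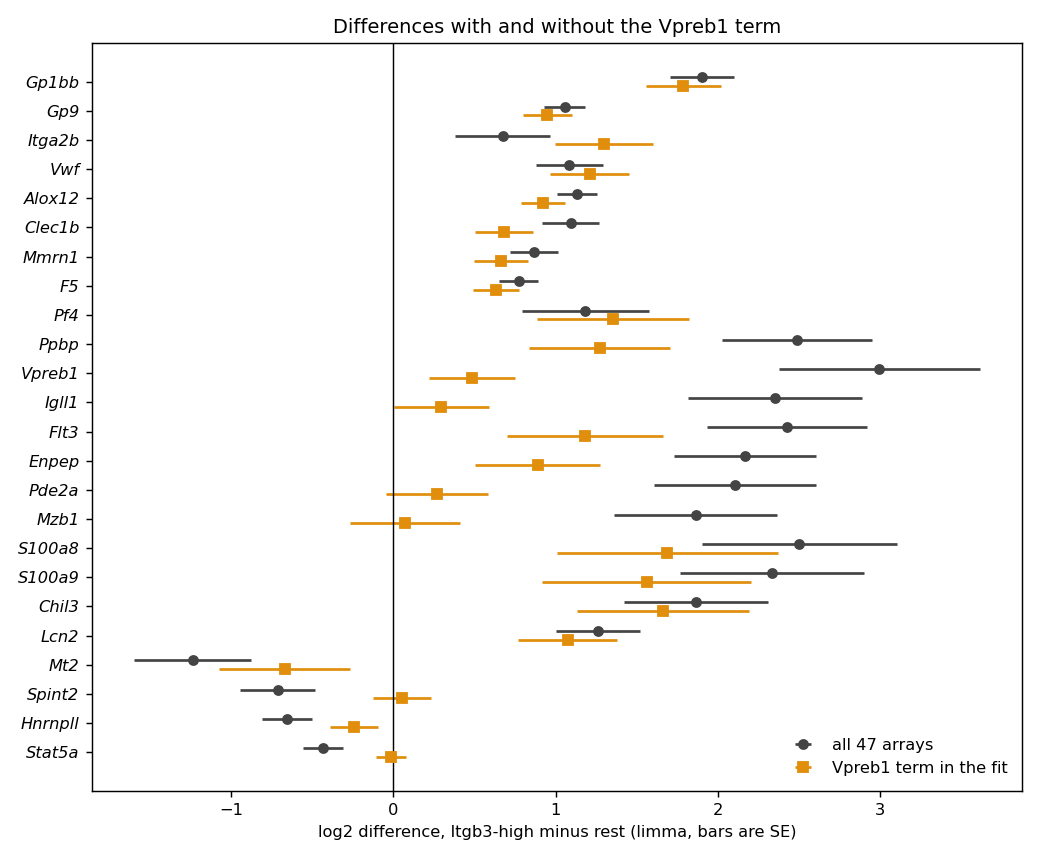
Log2 difference (horizontal axis, Itgb3-high minus rest) of 24 genes in limma, with bars of 1 SE, without (dark circles) and with (orange squares) the Vpreb1 term. Gp1bb, Gp9, Vwf and Alox12 stay near their values, Itga2b moves up from 0.67 to 1.30, and Vpreb1, Igll1 and Mzb1 move towards 0.

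Among genes that passed with the Vpreb1 term, the largest positive differences were those of Gp1bb (1.79 ± 0.23, SE), Itga2b, Cd9, Vwf, Plek, Gp9 and Alox12, all of them on the platelet lists. After these came Pdzk1ip1 at 0.88, Adgrg2 at 0.86 and Rab27b at 0.82, which were chosen after their values were seen. Ptpn11, a phosphatase of cytokine receptor signalling, stood at 0.74 ± 0.16 (SE; adjusted p = 0.0146) against 0.39 without the term. The most negative of those that passed was Eif2s3x, an X-linked initiation factor subunit, at -0.52 ± 0.10 (SE; adjusted p = 0.00643), beside which stand the counts for Xist, above 7 in 3 of the 10 and 22 of the 37. The part of sex in that difference was not tested with the Vpreb1 term. With a term for Xist in place of Vpreb1, Eif2s3x stood at -0.25 (adjusted p = 0.00114 in limma), against -0.38 with neither term. Across genes, the fit with the Xist term gave 880 higher (4.84%) and 611 lower (3.36%).

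The pair of spleens without Vpreb1 was also compared apart from the other 8. Among the 32 arrays with low Vpreb1, those 2 against the other 30 gave 371 higher (2.04%) and 61 lower (0.336%). Among the 15 arrays with Vpreb1 above 7, 8 Itgb3-high spleens against 7 others gave 0 in either direction in limma, with 892 genes at an unadjusted p under 0.05 and a smallest adjusted p of 0.103. Of the 107 platelet and megakaryocyte differences, 93 were positive there (median 0.18), and 90 where Vpreb1 was low (median 0.44). Of all 18177 genes, 8432 were positive where Vpreb1 was high (median -0.0043) and 8150 where it was low (median -0.007). Where Vpreb1 was high, 19 of 20 neutrophil genes, 22 of 26 stroma and matrix genes and 3 of 21 erythroid genes were positive. The 2 comparisons differ in their numbers of arrays, and the part of the pair in the calls with the Vpreb1 term was not tested. Gp1bb had a difference of 3.36 ± 0.28 (SE) in the arrays with low Vpreb1 and 1.00 ± 0.20 (SE, adjusted p = 0.501) in those with high Vpreb1. In the latter it ran from 6.31 through 7.32 to 7.80 against 5.93 through 6.20 to 6.79. The 2 differences were unequal by a test of the interaction (adjusted p = 4.84e-05). Itgb3, which set the sides, was unequal in the same direction. Its mean was 9.28 against 6.06 where Vpreb1 was low and 7.56 against 6.46 where it was high. Vpreb1 status and the size of the Itgb3 contrast therefore cannot be told apart in this interaction. Across all genes 92 had such an interaction (0.506%), 90 with a larger difference where Vpreb1 was low.

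That pair of spleens did not look alike. Female 21 had Gp1bb at 9.47, Gp9 at 8.31, Ppbp at 10.8 and Itga2b at 10.1, the highest of the 47 arrays for each of these. Female 18 had Gp1bb at 8.37 and the highest Pf4 of all, 11.2, but Ppbp at 6.90 and Gp9 at 6.41. S100a8 was 11.2 in the former and 8.09 in the latter, and Erg was 6.68 and 8.21. Leaving both out gave 1205 genes higher and 979 lower of 18177, and 37 of the 107 platelet and megakaryocyte genes higher. All 8 spleens left had Vpreb1 above 7, against 7 of the 37 others, and this fit held no Vpreb1 term. It therefore cannot tell high Itgb3 from high Vpreb1. Against those 7 alone, the 8 gave 0 calls, among the 107 as among all genes.

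The 8 Itgb3-high spleens with Vpreb1 differed in their other genes. Flt3 was above 7 in 6 of them, and stood at 5.20 in Male 10 and 6.503 in Female 9. Male 10 also had S100a8 at 12.0, Prg2 at 11.8 and Gata2 at 7.77, and Igll1 at 7.61. Klf1 ran from 5.62 in Male 16 to 9.99 in Female 13. Pf4 ran from 8.99 to 10.4 in these 8, Ppbp from 8.92 to 10.3, Itga2b from 6.81 to 9.33 and Vwf from 6.12 to 8.05.

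**Figure D5:**
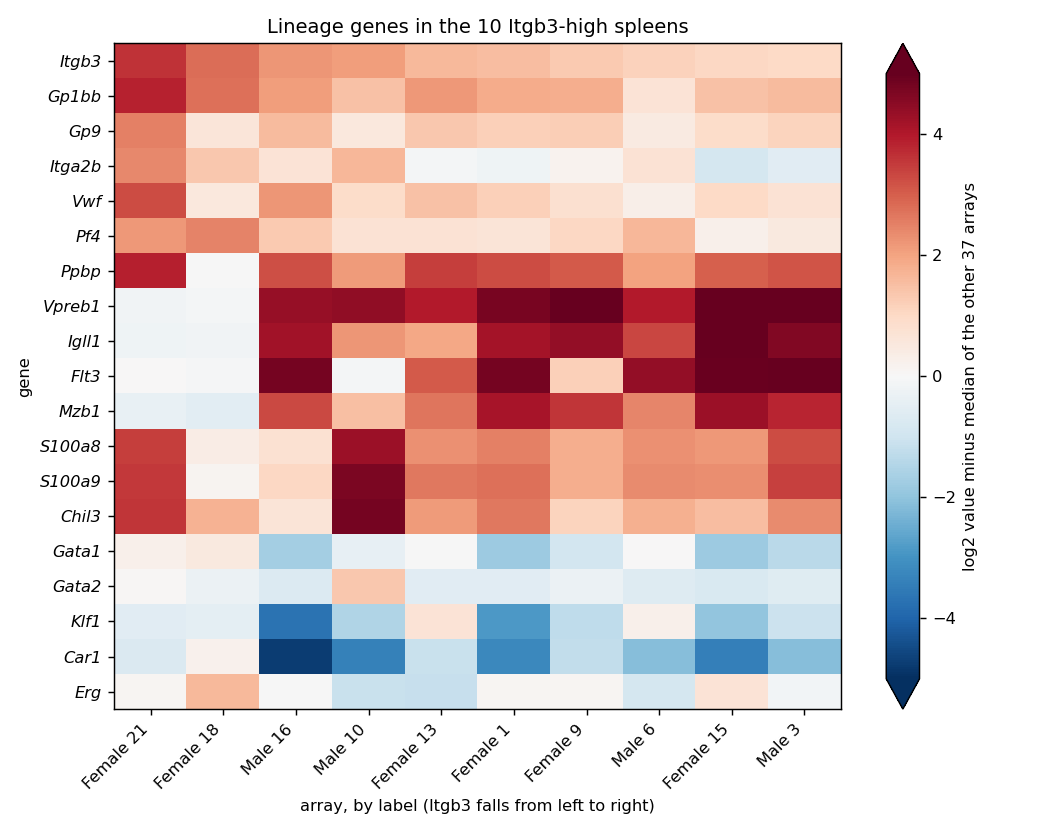
Log2 value minus the median of the other 37 arrays (colour scale) for 19 genes (rows) in the 10 Itgb3-high spleens (columns, Itgb3 falling from left to right); colours stop at 5 units. Gp1bb is above that median in all 10, while Vpreb1, Igll1 and Mzb1 are high in all but the 2 columns at the left, Female 21 and Female 18.

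Ranked by Pearson correlation with Itgb3 over the 47 arrays, the genes most like it were Gp1bb (r = 0.91), Gp9 (0.85), Dusp3 (0.83), Scamp2 (0.83), Slc35d3 (0.82), Zyx (0.81), Alox12 (0.79), Prkca (0.79), Kalrn (0.78) and Camk1 (0.78). The arrays share a platform and each spleen's cell mix, and the 2 arrays with the highest Itgb3 weigh heavily, so these are descriptions. Within the 37 other spleens alone, Gp1bb had r = 0.67, Gp9 0.71, Dusp3 0.69 and Camk1 0.30. Within the 10, Kalrn had 0.91, Gp1bb 0.87 and Alox12 0.31. Since the correlation picked these genes on the same arrays, a difference between the sides is no further evidence for them. Slc35d3, a membrane protein that platelet dense granules need, ran from 5.16 through 5.49 to 6.81 against 4.93 through 5.10 to 5.56, close to the floor.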

How the data were processed

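RNA of 47 spleens was measured on Affymetrix whole-genome mouse arrays from 3′ labelled RNA. The authors deposited log2 values made with RMA in affy under R 2.15, per the submitters' processing notes. For the annotation's genome build, the entry is: not given in the sources used here. RMA subtracts background, quantile normalizes and summarises probes. Of 45101 probe sets, 64 were controls, 34945 named 1 gene, 932 several and 9160 none. Of those naming 1 gene, 34741 had a gene number in the RefSeq table of GRCm38.p6. For each gene the brightest probe set naming it alone was kept (18193 genes). A gene entered the test if at least 9 arrays had it above log2 5, which left 18177 without Itgb3. Values ran from 4.78 to 12.99, array medians from 5.19 to 5.24, and correlations between arrays from 0.903 to 0.991, with 0 identical pairs. The number of arrays limits the precision.

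Arrays with Itgb3 above 7 were compared with the rest with limma 3.58.1 under R 4.3.3 (lmFit, then eBayes) and no covariate, adjusting by Benjamini-Hochberg across the genes tested, with a threshold of 0.05. The procedure was tested on simulated data. Since the sides come from a gene on the same arrays, the p-values concern genes that go along with Itgb3 in these arrays. The members, the 22 gene lists and the tests were chosen with earlier results of these data known. Counts of labels were compared with Fisher's exact test and single values with permutation tests of 100000 resamples, both two-sided. Named genes were the 3 markers, the 12 largest differences in each direction past the threshold, up to 4 members of each list with the smallest adjusted p, the regulators with a mean above log2 6, Itga2b, Itgav and the 10 genes most correlated with Itgb3. Further members named for their role were chosen after their values were seen. List members with no probe set naming only them are not analysed here. Alternatives changed the filter, the probe set rule, the threshold on Itgb3 (6.5, 7.5, the range between 6 and 7 left out, a slope), covariates, weights and centring, and left out arrays. The terms for Vpreb1 and Xist, the split by Vpreb1 and the removal of Female 18 and Female 21 were added after seeing the data.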

Additional observations from a re-analysis of the deposited data

Results flagged for a closer look

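Some single arrays of the Itgb3-high group stood apart from the other 9 by a gap that is large for the group's range (a gap ratio above Dixon's critical value, which flags about 1 group in 20 by chance). Female 18 was low in Ppbp at 6.90, where the next array had 8.92, and in Plac8 at 7.25. Female 21 was high in Esam at 7.14, Bgn at 8.15, Ccnd2 at 9.17, Dusp3 at 7.42 and Slc35d3 at 6.81. Male 10 was low in Oat at 6.39, and high in Gata2 at 7.77 and Ikzf2 at 8.31, where the next array had 6.03. Male 16 was high in the matrix genes Tgfbi at 7.75 and Dcn at 7.26.

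For 6 of the 102 named genes tested, the difference between Itgb3-high and other spleens was unequal in arrays with and without Vpreb1 above 7, by limma's test of the interaction. The difference with Vpreb1 minus that without was -2.36 for Gp1bb, -1.38 for Kalrn, -0.85 for Zyx, -0.82 for Slc35d3, -0.59 for Ptgir and -0.53 for Camk1. All 6 were larger where Vpreb1 was low, a side on which only 2 Itgb3-high arrays stand, Female 21 and Female 18. These 2 also had the highest Itgb3, so Vpreb1 status and the size of the Itgb3 contrast cannot be told apart. Apart from Ptgir, these genes are also among the 10 most correlated with Itgb3, a choice on which those 2 arrays weigh.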

How the results depend on the processing

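No paired analysis was possible because the sides come from the arrays, and the replicate numbers in the labels only name mice and pair no array of one side with one of the other. Counts of genes higher and lower (880 and 711) and of platelet and megakaryocyte genes higher (43) were recomputed under each alternative. They were 443, 718 and 26 with genes of a mean above log2 6 only (5411 genes tested). A threshold of 6.5 on Itgb3 gave 839, 1382 and 39, and 7.5 gave 175, 22 and 22. Leaving out arrays between 6 and 7 gave 1376, 1784 and 48, and a slope on Itgb3 gave 1055, 1345 and 56. The tumour identifier number as a block gave 518, 273 and 40, array weights 1737, 1900 and 46, and median centring 888, 2385 and 46. Leaving out arrays with high Vpreb1 or Cd3d (2 against 23) gave 479, 148 and 28. The Vpreb1 term gave 94, 13 and 19, arrays with high Vpreb1 alone 0, 0 and 0, and those with low Vpreb1 alone 371, 61 and 27. Leaving out 1 Itgb3-high array at a time gave 563 to 1112 higher, 410 to 919 lower and 36 to 46 platelet and megakaryocyte genes; the lowest were 563 and 428 without Female 9 and 410 lower without Male 3. The cause of these changes was not tested.

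The Erg label was on 100% of the Itgb3-high side in the 2 against 23 arrays, above the share in the others there. The age difference was -1.57 at a threshold of 6.5. Directions reversed for Spint2 with the Vpreb1 term (0.0514). In arrays with high Vpreb1 they reversed for Spint2 (0.33), Lonrf1 (0.0018), Ccnd2 (-0.11) and Stat5a (0.0614). In arrays with low Vpreb1, and with Cd3d-high arrays out as well, they reversed for Vpreb1, whose own level defines these arrays (-0.17 and -0.23), Flt3 (-0.0838 and -0.0820), Igll1 (-0.19 and -0.21), Enpep (-0.0805 and -0.0967), Mzb1 (-0.54 and -0.34), Tcirg1 (-0.0469 and -0.0103), Cd79a (-0.0734 and -0.0669) and Vpreb3 (-0.12 and -0.14). Of 76 named genes past the threshold, 17 kept direction and call with the Vpreb1 term, 58 lost the call and 1 reversed. With label covariates 66 kept both, with the Xist term 68, with the tumour identifier block 51 and with 1 array left out 57 to 72. Signal near the floor limits what dim genes can show.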

Other observations

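Of 26 stroma and matrix genes, 6 were higher and 0 lower without the term, 23.1% against 8.75% of all genes. Among them were Bgn by 0.50 ± 0.12 (SE), Cxcl13 by 0.89 and Pdgfra by 0.31 ± 0.08. With the term 0 passed, against 0.589% of all genes, and all 26 differences were positive, against 8011 of 18177 genes. The median of the 26 was 0.27 (0.31 among arrays with low Vpreb1 and 0.14 among those with high Vpreb1). Among arrays with low Vpreb1, 3 of the 26 were higher, against 2.04% of all genes. Of 23 interferon-stimulated genes, Gbp2 and Gbp3 were higher, by 0.90 ± 0.23 (SE) and 0.84 ± 0.18. That share of 8.7% was near the 8.75% of all genes called. With the term 0 passed and all 23 differences were positive, against 8011 of 18177 genes. The median of the 23 was 0.37, with 0.94 for Ifit1. That median was 0.92 among arrays with low Vpreb1, where only Female 21 and Female 18 are Itgb3-high. There 5 of the 23 were higher, against 2.04% of all genes. Among arrays with high Vpreb1 the median was 0.08 and 0 passed. Of the 23, 18 were positive there, against 8432 of 18177 genes.

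Besides Eif2s3x, 12 genes were lower with the Vpreb1 term, with small differences. Rpf2 stood at -0.38 ± 0.08 (SE; adjusted p = 0.0172), Tipin at -0.33 ± 0.08 (adjusted p = 0.0489) and Gins2 at -0.30 ± 0.07 (adjusted p = 0.0222) in limma. Without the term, Rpf2 was lower, at -0.36, and Tipin and Gins2 did not pass, at -0.22 (adjusted p = 0.0556) and -0.18 (adjusted p = 0.0686). These 3 were chosen after their values were seen.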
